A study of Mus musculus with 12 samples.

Results

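The question here was whether the effect of 80%TCM on CD8+ T cells depended on the cytokine they were kept with. Cells prepared from splenocytes of C57BL/6 mice received 1 of the cytokines IL-2 and IL-12, each with or without 80%TCM. Each of these 4 groups has 3 sequenced RNA libraries, and all 12 libraries of the study enter the comparison. The labels give no genotype, age or duration, and do not spell out TCM, and the series title names conditions like those of tumors. Whether a group's 3 libraries are different mice or cultures is not stated. All p-values therefore measure only the spread between these libraries, which may be technical. For each gene the TCM effect is the log2 fold change with TCM against without it in 1 cytokine, and the difference is the effect in IL-12 minus the effect in IL-2. Differences are given ± SE with the p of edgeR's quasi-likelihood test, adjusted over all genes tested by Benjamini-Hochberg, and called below 0.05. The SE is the absolute log2 difference divided by the square root of the test's F statistic, and is approximate for genes of few counts. A difference above 0 means that TCM raised the gene more, or lowered it less, in IL-12.

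IL-2 acts through a receptor that activates STAT5 and drives T cell growth and survival. IL-12 activates STAT4 and directs CD8+ T cells to an effector program with interferon gamma. The CD8 T cell identity was checked by markers. Cd8a, which encodes a chain of the CD8 coreceptor, lay between 813 and 1365 counts per 1e+06 counts (CPM) in the 12 libraries, against 0.444 to 4.55 CPM for Cd4. In units of 1e+06 counts, the libraries held 19.5 to 26.01, except IL-12 r1 and r2 with 49.64 and 42.35, which carry less counting error. Libraries are named here by group and replicate number (r1, r2, r3), with the suffix TCM where it was added. IL-2 r3 and IL-2-TCM r3, called the r3 pair, differed from r1 and r2 of their groups far more than other libraries did, and results are given with and without them. In bulk RNA, fewer cells of a type and less RNA per cell cannot be told apart.

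A small set of genes responded to TCM differently in the cytokines. The difference passed the test for 251 of 15897 genes (1.58%), 189 above 0 (1.19%) and 62 below 0 (0.39%). At least 2-fold differences were found for 64 of them (0.403%). The share above 0 was 75.3%, against 65.2% of 537 genes (4.18%) by DESeq2 and 60.3% of 779 with no filter on low counts. A second fit, called the IL-2 block here, adds the replicate number as a term inside the IL-2 arms. Replicate 3 deviated together in these arms, while a pairing of replicates 1 and 2 by number is assumed and not shown. This fit called 1668 genes (10.5%), and 4442 (27.9%) for the effect in IL-2. The effects themselves were far more often called. They were called for 2313 genes in IL-2 (14.5%), 6.73% higher and 7.82% lower with TCM, and for 4617 genes in IL-12 (29%), 14.8% higher and 14.2% lower. Over all genes tested the median difference was 0.00256. Among the 251 genes, 149 had a TCM effect that was called in IL-12 only, 107 higher and 42 lower with TCM. Another 36 had an effect called in IL-2 only, 32 lower and 4 higher. In 36 genes both effects were called with opposite signs, 30 of them higher with TCM in IL-12 and lower with TCM in IL-2, and 6 the reverse. The last 30 genes moved the same way in both cytokines but by different amounts, 15 up more in IL-12, 6 down more in IL-12, 5 down more in IL-2 and 4 up more in IL-2. These classes describe the genes and were not tested, and an effect called in 1 cytokine only is not shown to be absent in the other. Under that block, 34 of the 149 genes also had a called effect in IL-2, 13 in the same direction as in IL-12 and 21 opposite, and 12 of the 36 had one in IL-12, 3 the same and 9 opposite.

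**Figure D1:**
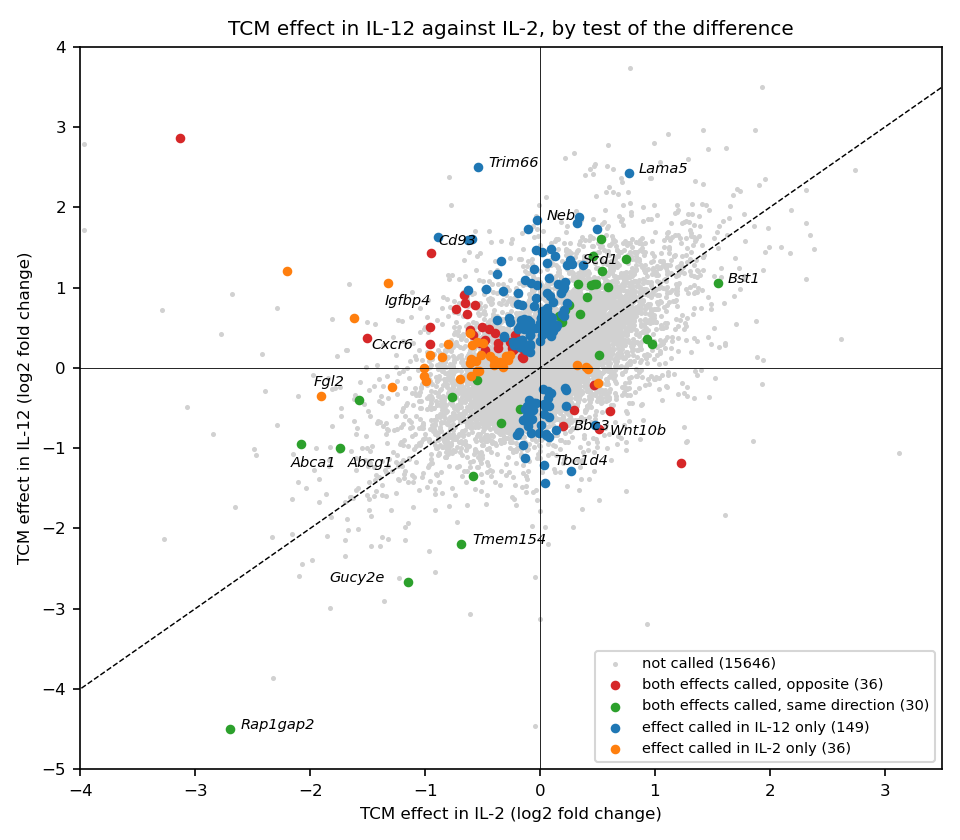
Each point is a gene, placed by its TCM effect in IL-2 (horizontal axis) and in IL-12 (vertical axis), both as log2 fold change; the dashed line marks equal effects. Colours show the classes of the 251 genes called for the difference: 149 called in IL-12 only lie along the vertical axis, 36 called in IL-2 only along the horizontal axis, 36 with opposite effects in the upper left and lower right, and 2 uncalled genes lie outside the axes.

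How many genes passed rested on single libraries. Left out alone, IL-12 r1, r2 and r3 gave 108, 114 and 121 genes, and IL-12-TCM r1, r2 and r3 gave 114, 105 and 116. The counts were 185, 148 and 275 without IL-2 r1, r2 and r3, and 149, 142 and 1164 without IL-2-TCM r1, r2 and r3. All 251 genes kept their sign in each of these 12 fits. All 251 also kept both sign and call without the r3 pair, a fit that called 2105 genes (13.2%). These fits reuse most of the libraries that made the calls, so kept signs and calls are not independent support. The TCM effect in IL-2 was called for 1292 and 1432 genes without IL-2 r1 and r2, and the TCM effect in IL-12 for 2931 and 3067 without IL-12 r1 and IL-12-TCM r3.

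Genes with opposite effects changed direction with the cytokine. Cd93, which encodes a lectin-like surface receptor, was at 21.6, 21.3 and 23.7 CPM in IL-2 and 9.69, 9.92 and 14.7 CPM in IL-2 with TCM (replicates 1, 2 and 3). In IL-12 it was at 5.05, 4.54 and 5.28 CPM and with TCM at 14.8, 13.02 and 12.2 CPM. Levels with and without TCM did not overlap in either cytokine, and the order was reversed, with effects of -0.95 in IL-2 and 1.43 in IL-12. Its difference was 2.38 ± 0.21 (adjusted p = 0.00026). Igfbp4, a secreted binder of insulin-like growth factors that is highly transcribed in naive T cells, was at 18.95, 20.7 and 28.5 CPM in IL-2 and 11.7, 11.7 and 17.6 CPM with TCM, against 127, 117 and 124 CPM in IL-12 and 191, 202 and 221 CPM with TCM. It was thus low in all 6 IL-2 libraries, lowest with TCM, and high in all IL-12 libraries, highest with TCM (difference 1.47 ± 0.22, adjusted p = 0.0053). Aqp9, a channel for water and glycerol, went from 9.43, 10.99 and 13.9 to 6.78, 7.45 and 7.58 CPM with TCM in IL-2 and from 26.1, 28.4 and 25.3 to 48.5, 46.8 and 45.3 CPM in IL-12 (difference 1.46 ± 0.16, adjusted p = 0.0007). P2ry14, a receptor for UDP-sugars, started near the same level in both cytokines, at 11.1, 12.2 and 12.1 CPM in IL-2 and 11.1, 10.6 and 11.02 CPM in IL-12. With TCM it was at 8.04, 8.85 and 6.94 CPM in IL-2 and 21.4, 17.6 and 17.4 CPM in IL-12, a difference of 1.36 ± 0.15 (adjusted p = 0.00082). B4galnt4, a sugar transferase, and Fam20a, a pseudokinase of the secretory pathway, had differences of 1.47 ± 0.15 (adjusted p = 0.00065) and 1.88 ± 0.33 (adjusted p = 0.012). Both were below 5 CPM in every IL-2 library and at 44.5 CPM or more in every IL-12 library. Fam20a was at only 0.291 to 1.91 CPM in IL-2, and its effect in IL-12 was 0.37 (adjusted p = 0.041). Limma gave it 1.04 on the log2(CPM + 1) scale (adjusted p = 0.0155) and 0.54 with 5 added (0.0161). Its difference was called in 25 of 26 alternative settings (adjusted p up to 0.095).

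Opposite effects were also found in regulators of adhesion, T cell fate and survival. Itgb3, the beta-3 integrin chain of platelets that activated T cells can also carry, was at 191, 207 and 228 CPM in IL-2 and 151, 139 and 171 CPM with TCM. In IL-12 it was at 58.99, 64.8 and 67.6 CPM and with TCM at 90.5, 87.4 and 90.6 CPM (difference 0.93 ± 0.12, adjusted p = 0.0018). Itga2b, its partner chain on platelets, fell in both cytokines, from 40.3, 46.5 and 40.8 to 22.9, 21.5 and 25.6 CPM in IL-2 and from 23.6, 28.9 and 28.4 to 16.2, 12.8 and 12.5 CPM in IL-12. The summed level of all 11 platelet and megakaryocyte markers went from 304 to 344 to 189.9 to 231 CPM in IL-2 and from 122 to 139.8 to 113 to 122 CPM in IL-12. Their part in the Itgb3 result was not tested, and no other of the 10 tested members was called for the difference. Foxo1, a transcription factor of quiescent and memory T cells, showed smaller opposite effects, -0.25 and 0.25, with levels of 174, 169.9 and 194 and 151, 158 and 144 CPM in IL-2 and 219, 213 and 219.7 and 256, 266 and 253 CPM in IL-12 (difference 0.50 ± 0.08, adjusted p = 0.0083).

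In the reverse direction, Bbc3, which encodes the cell death protein PUMA, was at 26.3, 27.6 and 26.3 CPM in IL-2 and 29.99, 31.5 and 30.9 CPM with TCM. In IL-12 it was at 21.04, 20.2 and 20.3 CPM and with TCM at 12.4, 12.9 and 11.9 CPM. TCM thus raised Bbc3 slightly in IL-2 and lowered it in IL-12, with effects of 0.20 and -0.73 and a difference of -0.93 ± 0.09 (adjusted p = 0.00036). The effect of Bbc3 in IL-2 was near the threshold (adjusted p = 0.043). It was called with the IL-2 block (0.016) and not without the r3 pair (0.051). Pou2f2, the transcription factor Oct-2, was at 55.7, 53.6 and 48.2 and 60.95, 59.6 and 72.9 CPM in IL-2 without and with TCM and at 25.2, 26.9 and 22.8 and 16.5, 17.2 and 18.4 CPM in IL-12 (difference -0.82 ± 0.13, adjusted p = 0.0069). Arap2, a regulator of Arf GTPases, rose in IL-2 from 125, 128 and 147 to 189, 188 and 176 CPM and fell in IL-12 from 305, 302 and 315 to 277, 251 and 266 CPM (difference -0.68 ± 0.09, adjusted p = 0.0022). Wnt10b, a secreted Wnt ligand, and Ptpn5, a tyrosine phosphatase, had differences of -1.28 ± 0.22 (adjusted p = 0.012) and -1.15 ± 0.21 (adjusted p = 0.016). The call of Ptpn5 was lost without IL-12 r1 or r2 or IL-12-TCM r1 or r2, with adjusted p-values up to 0.0589. For the other 12 genes named with opposite effects the call held in all 12 fits that left out 1 library. The count of 36 was 18 to 20 without any 1 of the IL-12 or IL-12 with TCM libraries, 21 and 19 without IL-2 r1 and r2, and 22 and 99 without IL-2-TCM r2 and r3.

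**Figure D2:**
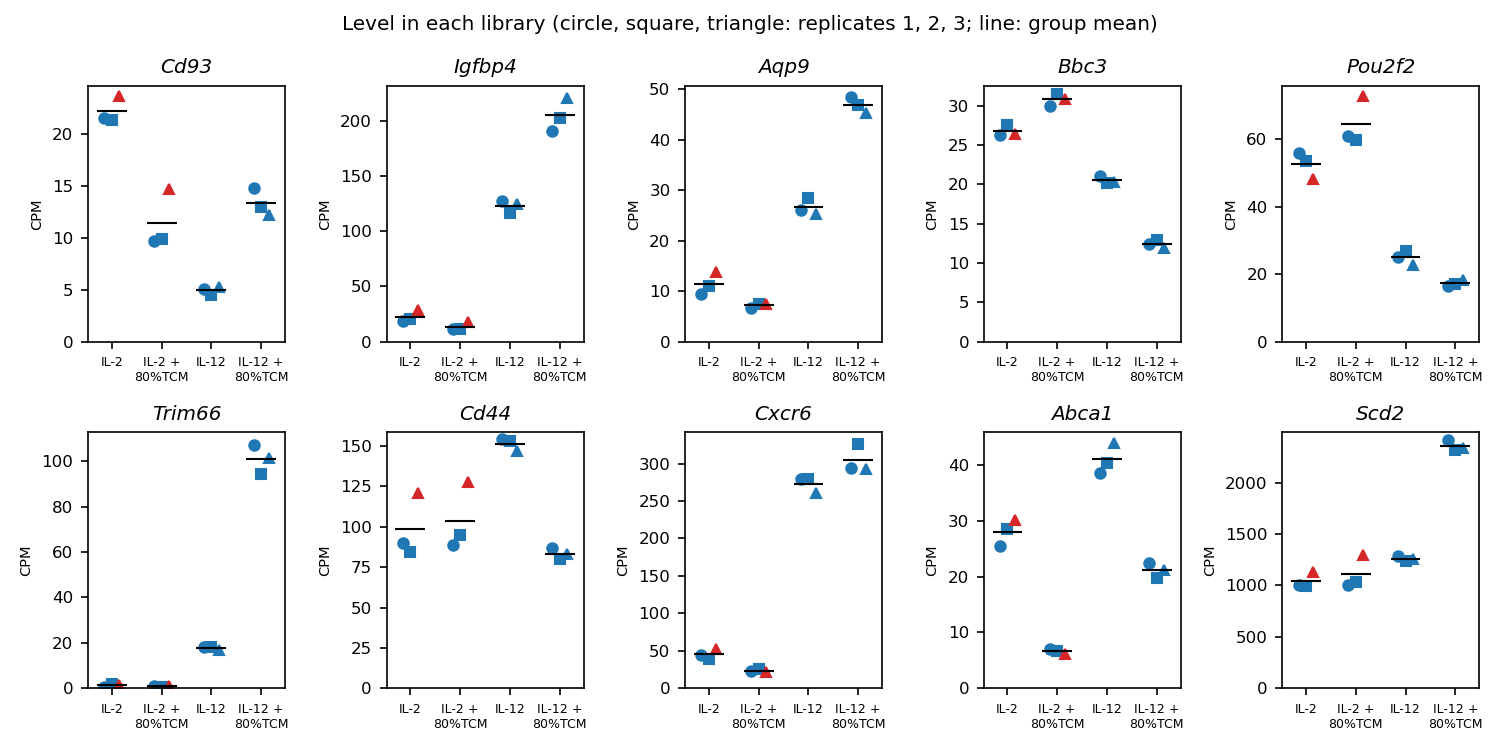
Levels of 10 genes in CPM for each of the 12 libraries, grouped by treatment; symbols give the replicate number, triangles in red are replicate 3 of the IL-2 groups, and bars are group means. Cd93, Igfbp4 and Aqp9 are lower with TCM in IL-2 and higher with TCM in IL-12, Bbc3 and Pou2f2 the reverse, while Trim66, Cd44 and Scd2 separate with TCM in IL-12, Cxcr6 in IL-2, and Abca1 in both.

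The most frequent pattern, with all libraries and no block, was a TCM effect called in IL-12 and not in IL-2. Trim66, a chromatin-binding protein of the tripartite motif family, was at 18.3, 18.2 and 16.7 CPM in IL-12 and 107, 94.2 and 102 CPM with TCM. In IL-2 it stayed below 2 CPM in all 6 libraries, and its difference was 3.04 ± 0.33 (adjusted p = 0.00068). Neb, the giant muscle protein nebulin, was at 54.9, 53.01 and 58.2 CPM in IL-12 and 220.01, 170.1 and 204 CPM with TCM, against 20.01, 21.7 and 42.8 and 26.3, 21.2 and 35.2 CPM in IL-2 (difference 1.87 ± 0.34, adjusted p = 0.014). Replicate 3 was the highest of each IL-2 group for Neb, and the IL-2 groups overlapped. Bend6, a BEN domain protein, was at 3.72, 4 and 4.18 and 10.9, 11.03 and 10.9 CPM in IL-12 without and with TCM and between 1.79 and 2.83 CPM in IL-2 (difference 1.5 ± 0.24, adjusted p = 0.008). Cxcr2, a receptor for CXC chemokines typical of neutrophils, was at 5.94, 6.17 and 6.996 and 18.8, 19.8 and 18.9 CPM in IL-12 and below 1 CPM in every IL-2 library (difference 2.22 ± 0.36, adjusted p = 0.0087). The call of Cxcr2 was lost without IL-2 r2 (adjusted p = 0.104), and its effect in IL-2 rests on few counts. On the log2(CPM + 5) scale limma gave 1.105 for Cxcr2 (adjusted p = 3.3e-06) and 0.83 for Bend6 (0.00027). The neutrophil markers Ly6g and S100a8 did not pass the filter on low counts in these libraries. Of the 20 myeloid and dendritic markers they belong to, 8 passed it, with a median difference of 0.37. With all libraries 0 of these were called, while DESeq2 called 1 and the IL-2 block 2, all above 0. The part of myeloid cells in the Cxcr2 result was not tested. Serpinb5, an inhibitor-family protein also called maspin, and Lama5, a laminin chain, had differences of 2.20 ± 0.49 (adjusted p = 0.043) and 1.66 ± 0.37 (adjusted p = 0.043), and both calls were lost in 10 of the 12 fits without 1 library, all except those without IL-2 r1 or IL-2-TCM r3 (adjusted p up to 0.227 and 0.143). Lama5 was higher with TCM in IL-2 too, with an effect of 0.77 (adjusted p = 0.066, and 5.6e-06 with the IL-2 block), so it left this class with the block.

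Genes lowered by TCM in IL-12 included regulators of GTPases and of surface contact. Tbc1d4, which controls vesicle traffic of glucose transporters, was at 19.6, 20.4 and 23.6 CPM in IL-12 and 9.41, 8.58 and 9.29 CPM with TCM. In IL-2 the levels without and with TCM overlapped, at 79.7, 71.9 and 87.8 and 84.5, 89.2 and 71.5 CPM, and the difference was -1.25 ± 0.15 (adjusted p = 0.001). Hemgn, a nuclear protein of blood progenitors, was at 9.11, 8.74 and 8.91 and 4.36, 4.39 and 3.597 CPM in IL-12 and at 26.1, 27.7 and 24.6 and 25.7, 24.5 and 21.3 CPM in IL-2 (difference -0.99 ± 0.14, adjusted p = 0.005). Cd44, the hyaluronan receptor that marks antigen-experienced T cells, was at 155, 153 and 147 CPM in IL-12 and 86.96, 79.96 and 82.9 CPM with TCM. In IL-2 it was at 90.1, 84.5 and 121 and 88.8, 95.03 and 128 CPM, where replicate 3 was highest in both groups and the groups overlapped (difference -0.94 ± 0.19, adjusted p = 0.028). The call of Cd44 was lost without IL-2 r1 or r2 or any 1 library of IL-12 or IL-12 with TCM (adjusted p up to 0.0758). Without the r3 pair its difference was -0.95 ± 0.07 (adjusted p = 3.7e-10). Arhgap29, a GTPase inactivator, Rasgef1a, a Ras family activator, and Gpc1, a heparan sulfate proteoglycan, had differences of -1.55 ± 0.30 (adjusted p = 0.021), -1.18 ± 0.25 (adjusted p = 0.036) and -0.92 ± 0.21 (adjusted p = 0.049). Each was called in 4 of the 12 fits without 1 library, and the 6 IL-12 libraries, left out singly, each ended the 3 calls (adjusted p up to 0.0877, 0.123 and 0.123). IL-2 r1 and r2 did so too for Gpc1, and IL-2-TCM r1 and r2 for Arhgap29 and Rasgef1a. The effect of Rasgef1a in IL-2, 0.48, was called with the IL-2 block (adjusted p = 0.0015) and not without it (0.07).

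Where the effect was called in IL-2 only, TCM mostly lowered the gene. Cxcr6, a chemokine receptor of tissue and tumor resident T cells, was at 44.4, 39.5 and 52.6 CPM in IL-2 and 22.7, 25.3 and 22.1 CPM with TCM. In IL-12 it was several times higher and not lower with TCM, at 279, 279 and 261 and 294, 326 and 293 CPM, with a difference of 1.12 ± 0.13 (adjusted p = 0.00091). Fgl2, a fibrinogen-like protein that can restrain T cells, was at 18.3, 19.9 and 30.5 and 4.31, 6.12 and 7.78 CPM in IL-2 without and with TCM and at 33.2, 37.1 and 34.4 and 28.2, 28.3 and 25.4 CPM in IL-12 (difference 1.55 ± 0.27, adjusted p = 0.012). Ifitm3, a membrane protein that blocks virus entry, was at 16.9, 18.2 and 14.3 and 7.12, 6.68 and 6.46 CPM in IL-2 and at 50.7, 53.1 and 48.2 and 42.7, 46.7 and 39.7 CPM in IL-12 (difference 1.05 ± 0.13, adjusted p = 0.0018). It belongs to a family of close copies whose reads the counting could split. Ptprj, the receptor phosphatase CD148, was at 42.1, 41.4 and 53.8 and 22.6, 25.6 and 27.6 CPM in IL-2 and at 36.5, 37.8 and 32.9 and 41.3, 39.7 and 36.6 CPM in IL-12 (difference 0.98 ± 0.15, adjusted p = 0.0053). For these 4 genes the groups without and with TCM did not overlap in IL-2, and each call held in all 12 fits without 1 library. The falls of Fgl2 and Ifitm3 in IL-12 were called too with the IL-2 block (adjusted p = 0.00039 and 0.0055). Snai3, a zinc finger repressor, had a difference of 0.86 ± 0.18 (adjusted p = 0.031) that was called in 3 of those fits, without IL-2 r3 or IL-2-TCM r2 or r3 (adjusted p up to 0.142 in the others). The 4 genes raised in IL-2 only, Qser1, Kdm7a, a histone demethylase, Stoml1 and the kinase gene Stk26, had differences from -0.70 to -0.28, and their calls were lost in 6, 10, 7 and 10 of the 12 fits, each without IL-12 r2 or any 1 library of IL-12 with TCM among them (adjusted p up to 0.14).

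Genes that moved the same way differed in size. Abca1, the transporter that exports cholesterol from cells, was at 25.4, 28.5 and 30.1 CPM in IL-2 and 7.03, 6.68 and 6.22 CPM with TCM, and at 38.6, 40.4 and 43.9 CPM in IL-12 and 22.4, 19.8 and 21.2 CPM with TCM. Both effects were downward, -2.08 in IL-2 and -0.95 in IL-12, and differed by 1.12 ± 0.12 (adjusted p = 0.0007). Emp1, a small membrane protein, also fell more in IL-2, from 14.8, 14.6 and 22.7 to 5.86, 6.42 and 5.14 CPM, than in IL-12, from 90.6, 84.2 and 82.3 to 67.5, 65.001 and 62.99 CPM (difference 1.18 ± 0.20, adjusted p = 0.0099). Replicate 3 was the highest of the IL-2 group for Emp1. Tmem154, a membrane protein, fell more in IL-12, from 18.9, 18.8 and 17.2 to 4.25, 3.56 and 4.15 CPM, than in IL-2, from 24.5, 22.99 and 27.7 to 16.04, 15.7 and 15.1 CPM (difference -1.52 ± 0.14, adjusted p = 0.00026). Gucy2e, a membrane guanylate cyclase, went from 8.29, 8.54 and 8.41 to 1.24, 1.46 and 1.25 CPM in IL-12 and from 30.7, 28.7 and 34.7 to 16.7, 15.8 and 10.05 CPM in IL-2 (difference -1.52 ± 0.26, adjusted p = 0.01). On the log2(CPM + 5) scale, which understates changes of low genes, limma gave Gucy2e -0.16 (adjusted p = 0.69), and the call was also lost without the r2 pair of IL-2 libraries. Rap1gap2, an inactivator of the adhesion GTPase Rap1, fell to 0.484, 0.261 and 0.599 CPM with TCM in IL-12 from 9.68, 10.6 and 10.7 CPM, and in IL-2 to 1.94, 1.29 and 2.11 from 11.4, 9.87 and 13.2 CPM (difference -1.81 ± 0.33, adjusted p = 0.016), a call lost without IL-12-TCM r1 or r2 (adjusted p up to 0.059). Limma gave Rap1gap2 -0.82 on the log2(CPM + 1) scale (adjusted p = 0.053) and -0.23 with 5 added (0.29). Rasgrp2, which activates Rap1, fell in both cytokines too, with effects of -0.58 and -1.34 and a difference of -0.76 ± 0.16 (adjusted p = 0.033), called in 2 of the 12 fits without 1 library, those without IL-2 r1 or IL-2-TCM r3 (adjusted p up to 0.115).

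Bcl6, a repressor that favours memory and follicular T cell states, rose more in IL-2, from 11.3, 9.87 and 11.9 to 22.05, 20.6 and 22.5 CPM, than in IL-12, from 22.8, 22.4 and 22.3 to 26.1, 27.8 and 28.9 CPM. Its levels with TCM ended closer together than those without, and the difference was -0.68 ± 0.11 (adjusted p = 0.0097). Wdr78, a dynein-associated protein of cilia, rose more in IL-12, from 14.1, 16.5 and 16.5 to 30.6, 33.1 and 32.97 CPM, than in IL-2, from 14.1, 13.4 and 13.1 to 16.5, 16.5 and 18.1 CPM (difference 0.71 ± 0.12, adjusted p = 0.0099). Cd72, a lectin best known on B cells, went from 16.1, 18.7 and 15.98 to 23.98, 24.8 and 24.9 CPM in IL-2 and from 2.85, 3.09 and 3.12 to 6.94, 7.01 and 6.84 CPM in IL-12 (difference 0.67 ± 0.13, adjusted p = 0.018). Its call was lost in 9 of the 12 fits without 1 library, all but those without IL-2 r1 or r3 or IL-2-TCM r3 (adjusted p up to 0.099). Limma gave Cd72 0.45 on the log2(CPM + 1) scale (adjusted p = 0.088). The summed level of 12 B cell markers, nearly all of it from the antibody gene Ighm, was 801, 753 and 466 CPM in IL-2 and 708, 749 and 311 CPM with TCM, and 91.3 to 94.1 and 70.7 to 75.1 CPM in IL-12. Ms4a1, Pax5 and Cd22, defining genes of B cells, did not pass the filter on low counts. Of the 12 markers, 6 passed it, with a median difference of -0.207. With all libraries 0 of these were called, and DESeq2 also called 0. The IL-2 block called 1, above 0, and the fit without the r3 pair 2 above and 1 below. The part of B cell RNA in the Cd72 result was not tested.

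Among lists of genes by pathway, lipid genes held called members in 1 direction. Counts of called differences with all libraries are to be read against 1.58% over all genes and a median difference of 0.00256, those by DESeq2 against 4.18%, those with the IL-2 block against 10.5%, and those of TCM effects against the shares given above. The lists were chosen with earlier results of these data known. Of 13 tested targets of the sterol-sensing receptor LXR and of cholesterol efflux, 3 had a called difference above 0 and none below (median 0.39). They were Abca1, its relative Abcg1 and Mylip, a ubiquitin ligase that degrades the LDL receptor. Mylip was at 20.7, 20.3 and 21.3 and 10.999, 11.5 and 8.53 CPM in IL-2 without and with TCM and at 34.2, 39.8 and 40.4 and 36.1, 35.9 and 34.8 CPM in IL-12 (difference 0.91 ± 0.14, adjusted p = 0.0062). Abcg1 was at 126, 116 and 104 and 34.9, 37.5 and 30.8 CPM in IL-2 and 54.99, 53.4 and 60.7 and 29.4, 28.6 and 26.2 CPM in IL-12 (difference 0.74 ± 0.12, adjusted p = 0.01), a call lost without IL-12 r1 or IL-12-TCM r1 or r2 (adjusted p up to 0.0598). All 3 fell with TCM in IL-2, and each of them fell less, or was not called, in IL-12.

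Of 25 cholesterol synthesis genes, 24 rose with TCM in each cytokine, and 3 differed, all rising more in IL-12 (median difference 0.13). Acat2, which makes the first intermediate of the pathway, was at 46.9, 51.1 and 57.9 and 70.2, 70.6 and 74.9 CPM in IL-2 and at 88.5, 93.6 and 91.95 and 186, 191 and 187 CPM in IL-12 (difference 0.57 ± 0.09, adjusted p = 0.0092). Mvd and Pmvk, later enzymes of the mevalonate pathway, had differences of 0.61 ± 0.12 (adjusted p = 0.027) and 0.59 ± 0.13 (adjusted p = 0.036), calls that were lost in 10 and 8 of the 12 fits without 1 library, those without any 1 of the 6 IL-12 libraries or IL-2-TCM r1 or r2, and for Mvd also IL-2 r1 or r2 (adjusted p up to 0.109 and 0.103). Hmgcs1, at the entry of the pathway, rose in both cytokines and did not pass the test of the difference, 0.13 ± 0.11 (adjusted p = 0.66). Of 22 fatty acid synthesis genes, 3 differed, all above 0 (median 0.21). Scd2, a desaturase that makes monounsaturated fatty acids, was at 1290.1, 1234 and 1252 CPM in IL-12 and 2416, 2315 and 2331 CPM with TCM, against 1007, 998 and 1134 and 1008, 1036 and 1291 CPM in IL-2 (difference 0.82 ± 0.12, adjusted p = 0.0047). Scd1, a close relative, was at 107, 97.5 and 99.6 and 251, 244 and 250.1 CPM in IL-12 and 48.2, 47.6 and 63.6 and 53.01, 58.3 and 82.2 CPM in IL-2 (difference 1.01 ± 0.20, adjusted p = 0.021). Its effect in IL-2, 0.28, was called with the IL-2 block (adjusted p = 0.00069) and not without it (0.21). Lpin1, a phosphatase of triglyceride synthesis, had a difference of 0.54 ± 0.10 (adjusted p = 0.017). The call of Scd1 was lost without IL-2-TCM r2 or any 1 of the 6 IL-12 libraries, and that of Lpin1 without IL-2 r2, IL-12 r1 or r2, or IL-12-TCM r1 or r3 (adjusted p up to 0.0683 and 0.0694).

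Of 66 interferon response genes, 6 had a called difference, all above 0 (median 0.18). Ddx58, the RNA sensor RIG-I, was at 64.8, 61.3 and 65.9 CPM in IL-12 and 93.5, 86.2 and 88.1 CPM with TCM, while in IL-2 it was at 95.3, 101 and 93.7 and 90.1, 89.3 and 83.02 CPM (difference 0.62 ± 0.08, adjusted p = 0.0019). Zbp1, a sensor of nucleic acids, was at 99.03, 102 and 102 and 138, 149.7 and 136 CPM in IL-12 and 80.5, 89.5 and 104 and 80.3, 84.1 and 75.9 CPM in IL-2 (difference 0.68 ± 0.11, adjusted p = 0.01). Irf7, a transcription factor that amplifies interferon production, fell in IL-2 from 47.3, 48.2 and 51.4 to 32.6, 32.7 and 31.02 CPM and was at 16.05, 18.1 and 18.1 and 19.4, 17.4 and 17.5 CPM in IL-12 (difference 0.67 ± 0.10, adjusted p = 0.0057). Ddx58 and Zbp1 rose with TCM in IL-12, with effects of 0.48 and 0.48. Their effects in IL-2, -0.14 and -0.19, were called with the IL-2 block (adjusted p = 0.034 and 0.035) and not without it (0.11 and 0.14). Oasl2, Isg15 and Slfn8, named after their values were seen, had differences of 1.57 ± 0.27 (adjusted p = 0.012), 0.99 ± 0.20 (adjusted p = 0.028) and 0.47 ± 0.11 (adjusted p = 0.045). The call of Oasl2 held in all 12 fits without 1 library, and those of Isg15 and Slfn8 were lost in 9 and 10 of them, which include those without any 1 of the 6 IL-12 libraries, IL-2 r2 or IL-2-TCM r1 or r2, and for Slfn8 also IL-2 r3 (adjusted p up to 0.0954 and 0.153). Ifng itself, the gene of interferon gamma, was at 66.4, 67.97 and 58.9 and 77.8, 87.02 and 85.2 CPM in IL-12 and at 1.07 to 2.21 CPM in IL-2, with a difference of 0.23 ± 0.26 (adjusted p = 0.75).

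Of 29 genes of chemokine receptors, integrins and their GTPase regulators, 5 had a difference above 0 and 2 below (median 0.08). Cxcr6, Itgb3, Cd44 and Rap1gap2 are described above. Sipa1l1, of a family that inactivates Rap, rose in both cytokines and more in IL-12, from 342, 350.02 and 354 to 609, 552 and 569.7 CPM against 201, 205 and 227 to 239, 244 and 254 CPM in IL-2 (difference 0.51 ± 0.08, adjusted p = 0.0072). Itgae, the integrin chain CD103, fell in both cytokines, with effects of -1.85 and -2.10, and the difference was -0.24 ± 0.15 (adjusted p = 0.49).

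Of 46 transcription factors of effector and memory cells, 3 had a difference above 0 and 1, Bcl6, below. Runx3, which sustains the CD8 and cytotoxic program, was at 263, 263 and 261 CPM in IL-12 and 369.99, 353 and 393 CPM with TCM, against 269, 277 and 324 and 279, 267 and 297 CPM in IL-2, where the groups overlapped (difference 0.55 ± 0.10, adjusted p = 0.014). Foxo1 is given above, and Maf, named after its values were seen, was at 8.02, 8.899 and 8.44 and 4.17, 4.796 and 3.59 CPM in IL-2 and 6.301, 5.43 and 6.14 and 5.59, 6.75 and 5.495 CPM in IL-12 (difference 1.01 ± 0.18, adjusted p = 0.015, lost without r2 of IL-2, IL-12 or IL-12-TCM, adjusted p up to 0.0669). Of 26 genes of the IL-12 and STAT4 axis, 3 were above 0 and none below, among them Runx3 and Il21r, the receptor for IL-21 (difference 0.45 ± 0.10, adjusted p = 0.043, lost in 11 of the 12 fits, all but that without IL-2-TCM r3, adjusted p up to 0.137). With DESeq2 size factors this list held 2. Stat4 itself rose in IL-2 from 99.8, 98.4 and 96.3 to 130.2, 128 and 124 CPM and was at 80.7, 79.1 and 82.8 and 86.8, 89.2 and 85.3 CPM in IL-12, and missed the threshold (difference -0.27 ± 0.06, adjusted p = 0.057, 0.0076 with the IL-2 block). Of 38 genes of AP-1, EGR and NF-kappaB, 1 was above 0 and 2 were below, all 3 of them genes of the IkB family, which bind NF-kappaB proteins. Nfkbid was at 17.8, 19.4 and 18.2 and 11.7, 12.3 and 12.3 CPM in IL-12 and 14.1, 15.6 and 15.8 and 14.8, 16.7 and 16.5 CPM in IL-2 (difference -0.68 ± 0.12, adjusted p = 0.011). Nfkbia, whose protein holds NF-kappaB in the cytoplasm, had a difference of -0.61 ± 0.14 (adjusted p = 0.043) and Nfkbiz one of 0.58 ± 0.11 (adjusted p = 0.019), called in 4 and 6 of the 12 fits without 1 library (adjusted p up to 0.141 and 0.0797). IL-12 r1 and r3, IL-12-TCM r2 and r3 and IL-2-TCM r2 each ended both calls. IL-2 r2, IL-12 r2 and IL-12-TCM r1 ended that of Nfkbia, and IL-2 r1 that of Nfkbiz. Fth1, the ferritin heavy chain that stores iron, named after its values were seen, was at 620.1, 608 and 610.4 CPM in IL-12 and 918, 919.8 and 888 CPM with TCM and at 339, 326 and 309 and 319.7, 323 and 276 CPM in IL-2 (difference 0.65 ± 0.09, adjusted p = 0.0024), a call that held in all 12 fits. It has many pseudogenes whose reads the counting could split.

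Genes of cell division fell with TCM in both cytokines, and lists of growth genes held 1 called difference. Of 49 DNA replication genes 38 fell in IL-2 and 47 in IL-12, of 45 mitosis genes 28 and 33 fell, and with all libraries no member of either list was called for the difference (medians -0.13 and -0.04). By edgeR 0 and 14 replication genes and 0 and 3 mitosis genes were above and below 0 at an unadjusted p under 0.05, and DESeq2 called 1 replication gene, below 0, and no mitosis gene. Of 38 genes in the list for MYC and ribosome assembly, 4 fell in IL-2 and 26 in IL-12, against 7.82% and 14.2% of all genes, and 1, Fbl, a nucleolar methyltransferase, was called (difference -0.49 ± 0.11, adjusted p = 0.044, lost in 9 of the 12 fits, all but those without IL-2 r2 or r3 or IL-2-TCM r3, adjusted p up to 0.153). The IL-2 block called 4.14% of all genes below 0, and with it 8 replication, 1 mitosis and 12 MYC list genes were below 0 and none above. Of 24 cytotoxic granule genes, 34 hypoxia response genes, 46 nuclear genes of oxidative phosphorylation and 22 costimulation genes, none was called for the difference by edgeR with all libraries. At an unadjusted p under 0.05 there were 7, 2, 7 and 5 in these 4 lists, and DESeq2 called 1, 0, 0 and 2. The share of all genes at that unadjusted threshold is not given here. The unadjusted counts of these lists and of the replication and mitosis lists therefore do not show more or fewer members than among all genes. With the IL-2 block these lists had 7, 11, 0 and 4 members called above 0 and 0, 0, 5 and 2 below, where 6.35% of all genes were above and 4.14% below. Over the 29 pathway lists 44 distinct genes were called, and the count was 19 to 24 without any 1 of the 6 IL-12 libraries, 26 without IL-2 r2, and 27 and 181 without IL-2-TCM r2 and r3.

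**Figure D3:**
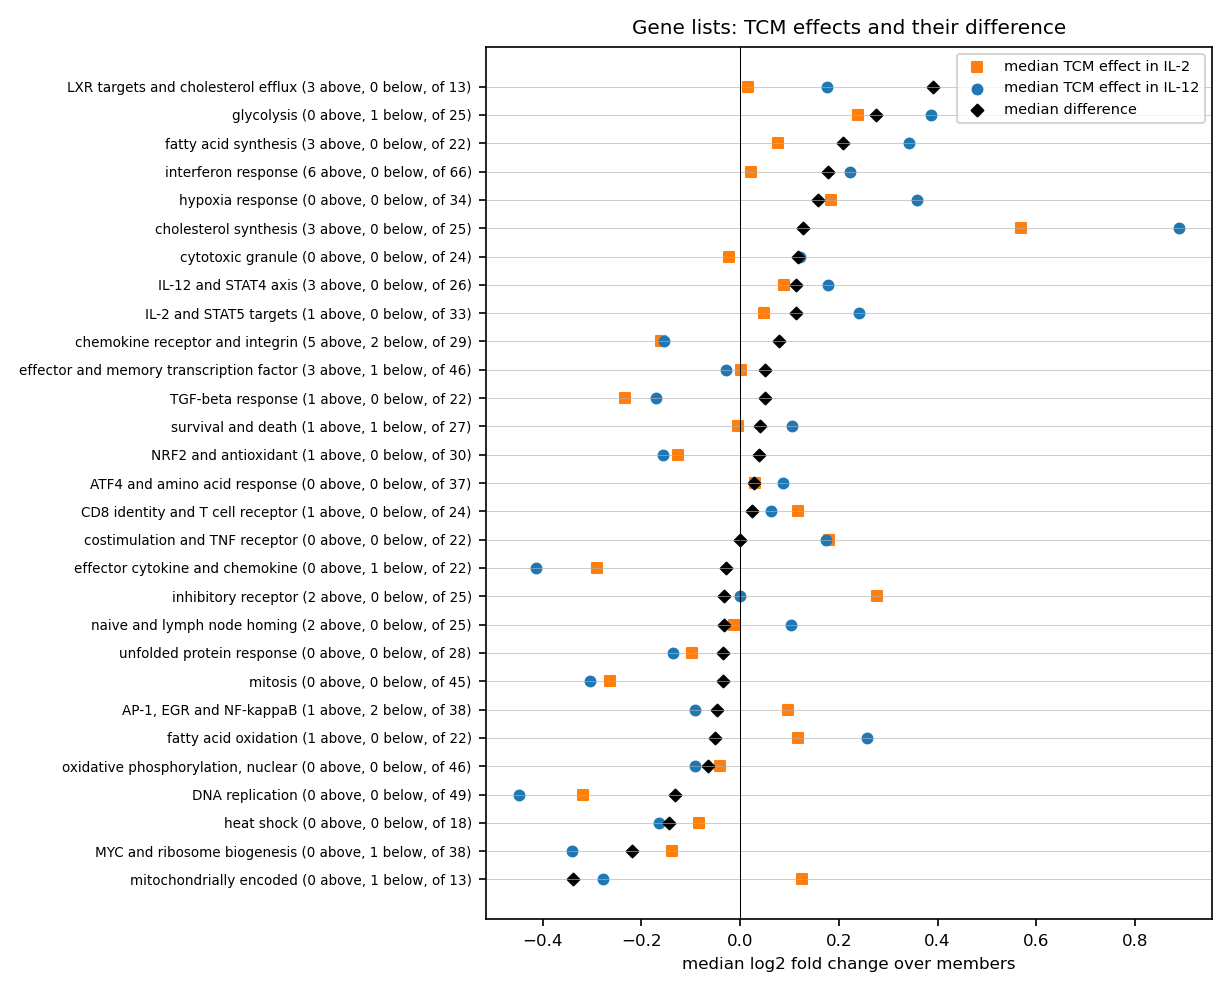
For each of 29 pathway lists, the median over its tested members of the TCM effect in IL-2 (orange squares), in IL-12 (blue circles) and of the difference (black diamonds), as log2 fold change; labels give the members called above and below 0 and the number tested. Cholesterol synthesis lies far to the right in both cytokines with 3 of 25 members called, and DNA replication to the left in both with 0 of 49.

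The count of called genes depended most on replicate 3 of the IL-2 groups. Over 9583 genes with at least 10 CPM in a library, replicate 3 differed from the mean of replicates 1 and 2 by at least 1 on the log2(CPM + 1) scale for 118 genes in IL-2 and 182 in IL-2 with TCM, against 2 in IL-12 and 1 in IL-12 with TCM. The SD of this shift over genes was 0.301 and 0.352 in the IL-2 groups and 0.0916 and 0.1 in the IL-12 groups. The shifts of the pair of IL-2 groups had a Pearson correlation of 0.779 over these genes, and those of the IL-12 groups of 0.0835. Genes are not independent replicates, so these values describe the libraries. The change that replicate 3 brought to the difference had an SD of 0.0741, and 0 genes changed by 1 or more. The IL-2 effect of replicate 3 alone had a correlation of 0.652 and 0.658 with those of replicates 1 and 2, which had 0.776 with each other.

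Of the 29 pathway lists, glycolysis and hypoxia response had the largest median shifts in the IL-2 groups. Their median shift was 1.14 and 1.10 in IL-2 and 1.24 and 1.29 in IL-2 with TCM, and between -0.12 and -0.03 in the IL-12 groups. Pgk1, an enzyme of glycolysis, was at 684, 701 and 2336 CPM in IL-2 and 713, 701 and 2388 CPM with TCM, and at 1018, 935 and 989 and 1373, 1344 and 1197 CPM in IL-12. In IL-2 the levels without and with TCM were close within each replicate number, while replicate 3 was over 3 times the others. Pgk1 had a difference of 0.38 ± 0.68 (adjusted p = 0.86) with all libraries and 0.37 ± 0.07 (adjusted p = 0.00077) without the r3 pair. Ldha, which makes lactate, was at 883, 903 and 1956 and 856, 914 and 2019 CPM in IL-2 and at 1498, 1359 and 1373 and 1440.2, 1385 and 1259.8 CPM in IL-12, and was not called in either fit (-0.07 ± 0.45, adjusted p = 0.97, and -0.05 ± 0.07, adjusted p = 0.76 without these libraries). Pkm, the last enzyme of glycolysis, had a difference of 0.31 ± 0.70 (adjusted p = 0.89), and 0.33 ± 0.07 (adjusted p = 0.0035) without them. Vegfa, a vascular growth factor, was at 2.42, 3.26 and 32.9 and 7.03, 7.12 and 57.2 CPM in IL-2 and 6.53, 5.51 and 5.54 and 20.6, 22.6 and 19.9 CPM in IL-12, with a difference of 0.93 ± 1.23 (adjusted p = 0.8), and 0.51 ± 0.19 (adjusted p = 0.078) without them. With the IL-2 block, Pgk1, Pkm and Vegfa were called (adjusted p = 0.0014, 0.007 and 0.001) and Ldha was not (0.72). Without the r3 pair, 15 of 25 glycolysis genes and 13 of 34 hypoxia genes were called above 0, and 1 and 0 below, where 13.2% of all genes were called. With all libraries these counts were 0 and 0 above, and 1, Eno3, and 0 below.

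**Figure D4:**
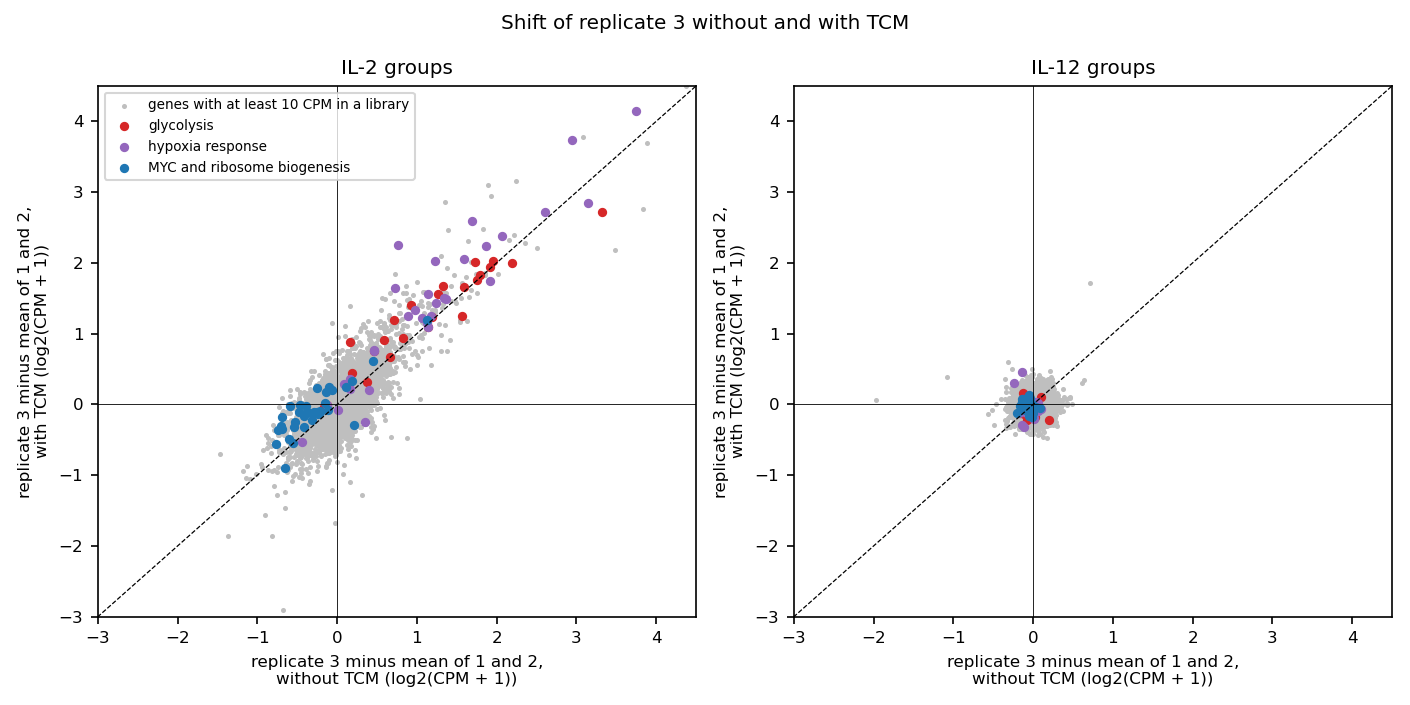
For genes with at least 10 CPM in a library, the shift of replicate 3 from the mean of replicates 1 and 2 without TCM (horizontal axis) and with TCM (vertical axis), as log2(CPM + 1), in the IL-2 groups (left) and the IL-12 groups (right); the dashed line marks equal shifts. In IL-2 the points stretch along the line (correlation 0.779) with glycolysis and hypoxia genes at its upper end, and in IL-12 they stay near 0 (correlation 0.0835).

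Hypoxia-inducible factors, which switch on many of these genes, bind sites that hold the letters ACGTG or close variants. The bases ACGTG were found, on either strand, within 250 bases before the start in 35 of 73 promoters of the glycolysis and hypoxia genes (47.9%, 50 of 57 genes matched), against 21.5% of 13081 promoters of genes tested. These lists were chosen as genes of glycolysis and of the hypoxia response, so this share describes the lists and not these libraries. Whether these factors had a part in the shift of replicate 3 was not tested. The promoters are those of RefSeq on GRCm38.p6, and the window counts no bases after the start. A match is a description, not a binding site. In 44 promoters of the genes with opposite effects 9 held it (20.5%, 29 of 36 genes matched), and in 283 promoters of the genes called for the difference 50 did (17.7%). The STAT half-site pair TTCNNNGAA was found in 2 of those 44 (4.55%), and in 23 of 283 promoters of the genes called for the difference (8.13%, 195 of 251 genes matched), against 6.02% of the promoters of genes tested. A stretch of 60 bases is shown for 3 glycolysis genes that moved together in replicate 3, 5′ to 3′ on the strand of the gene, with ACGTG or its complement CACGT in capitals. In CACGTG the matches on both strands overlap.
Ldha (chr7:46845631-46845690, plus strand): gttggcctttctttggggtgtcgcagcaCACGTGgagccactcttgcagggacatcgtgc
Pgk1 (chrX:106186922-106186981, plus strand): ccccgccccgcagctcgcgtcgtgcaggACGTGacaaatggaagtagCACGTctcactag
Pkm (chr9:59657124-59657183, plus strand): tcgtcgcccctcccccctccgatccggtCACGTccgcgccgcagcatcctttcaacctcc

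Omitting the r3 pair raised the count of genes with a called difference from 251 to 2105 of 15939 (13.2%). Of all genes, 6.96% (1110) were then above 0 and 6.24% (995) below. The share above 0 was 75.3% with all libraries and 52.7% without these. The IL-2 block keeps all libraries, and its 1668 genes were 1010 above (6.35% of all) and 658 below (4.14%), so 60.6% were above. With the block over all libraries 330 were called (2.08%). Without IL-2-TCM r3 alone the count was 1164, and without IL-2 r3 alone 275. Omitting the r1 pair or the r2 pair of these groups instead gave 111 (0.683%) and 77 genes (0.48%). Neither of the other same-number pairs, when removed, thus raised the count. These omissions were chosen after seeing the data, and the r3 pair too was known from earlier results to stand apart. Leaving out the libraries that deviate most lowers the spread by construction, so p-values without the r3 pair can be too small. The common biological coefficient of variation, a summary over genes of the spread between replicates, was 0.104 with all libraries, 0.0405 without the r3 pair and 0.0501 with the IL-2 block. The test itself uses a spread per gene. The median SE of the difference over genes was 0.168, 0.132 and 0.127 in these fits.

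Of the 2105 genes, 251 were those called with all libraries, 1852 were tested but not called there and 2 were not tested there. Of the 1852, 1848 had the same sign of the difference in both fits. Their median absolute difference was 0.322 with all libraries and 0.363 without, while the median standard error went from 0.139 to 0.0846. The 251 genes called in both fits had a median absolute difference of 0.667, 0.641 without these libraries, and a median standard error of 0.115 and 0.0906. Their median absolute shift of replicate 3 was 0.135, against 0.232 in the 1852 genes and 0.157 in the 13794 called in neither. Of the 1852, 920 were above 0 and 932 below. The 251 were thus genes with larger differences and smaller shifts than the 1852, as descriptions of sets that the calls themselves define.

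**Figure D5:**
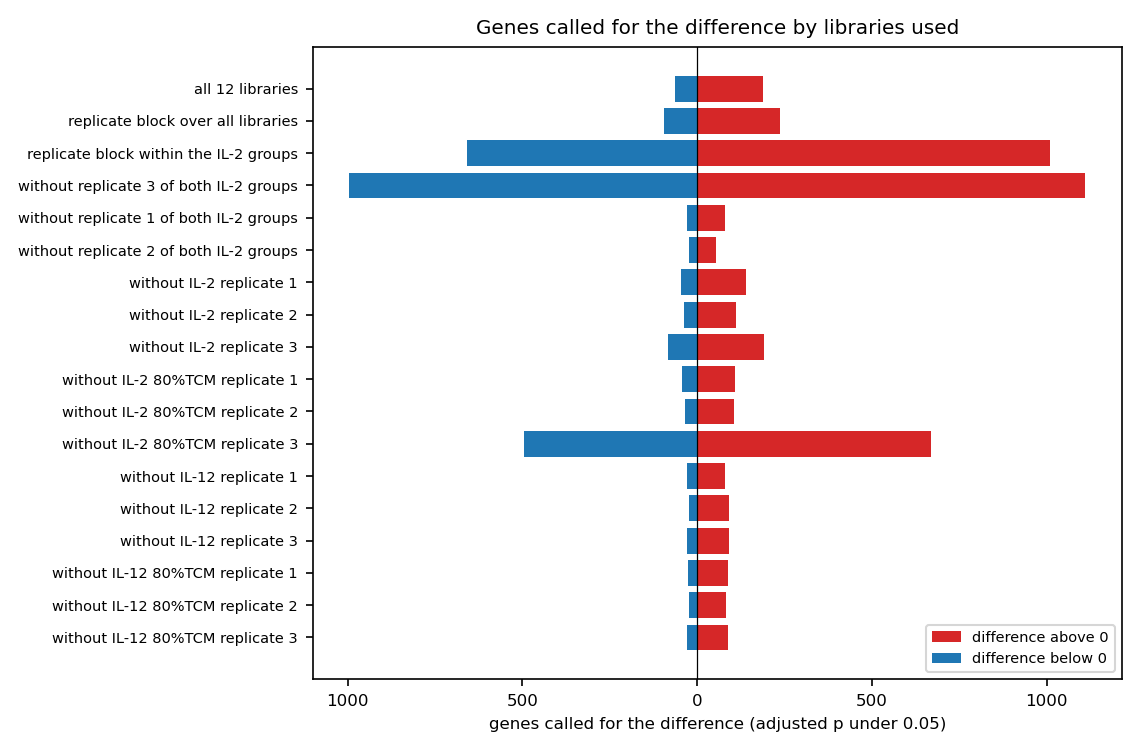
Number of genes called for the difference (adjusted p under 0.05), above 0 in red to the right and below 0 in blue to the left, by the libraries or block used. The 3 long bars are the IL-2 block (1668), the fit without the r3 pair (2105) and that without IL-2-TCM r3 (1164); the count with all 12 libraries is 251.

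Genes called without the r3 pair and not with all libraries included receptors and effector molecules. The pair was left out because it stood apart, so the p-values without it can be too small. Lag3, an inhibitory receptor, was at 109, 114 and 194 and 139, 148 and 277 CPM in IL-2 and at 143, 146 and 141 and 368, 407 and 357 CPM in IL-12. Replicate 3 was the highest of each IL-2 group, and in IL-12 the groups without and with TCM did not overlap. Its difference was 0.96 ± 0.34 (adjusted p = 0.2) with all libraries, 1.02 ± 0.07 (adjusted p = 2.1e-10) without these and had an adjusted p of 1.2e-08 with the IL-2 block. Entpd1, the ectonucleotidase CD39, was at 19.4, 18.8 and 33.8 and 20.8, 22.2 and 40.95 CPM in IL-2 and 30.5, 27.9 and 28.8 and 85.2, 80.1 and 75.3 CPM in IL-12, with 1.24 ± 0.34 (adjusted p = 0.093) and 1.28 ± 0.10 (adjusted p = 6.5e-10), and 1.2e-08 with the block. Tnfrsf8, the receptor CD30, gave 1.43 ± 0.34 (adjusted p = 0.057) and 1.63 ± 0.12 (adjusted p = 1.9e-10), and 1.9e-08 with the block. Emilin2, a matrix glycoprotein, was at 23.4, 26.3 and 50.7 and 21.9, 25.7 and 81.2 CPM in IL-2 and 8.41, 7.41 and 8.41 and 26.1, 26.7 and 21.98 CPM in IL-12, and gave 1.27 ± 0.59 (adjusted p = 0.34) and 1.68 ± 0.13 (adjusted p = 6.5e-10). Sla, an adaptor that dampens T cell receptor signalling, was at 205, 204 and 150.1 and 282, 286 and 138 CPM in IL-2, where TCM was higher in replicates 1 and 2 and lower in replicate 3, and at 251, 251 and 239 and 191, 192 and 186 CPM in IL-12 (-0.72 ± 0.29, adjusted p = 0.27, and -0.86 ± 0.06, adjusted p = 1.9e-10). Mt1, a metal-binding protein, was at 80.6, 81.2 and 138 and 29.8, 37.3 and 163 CPM in IL-2, lower with TCM in replicates 1 and 2 and higher in replicate 3, and its difference moved from 0.58 ± 0.65 (adjusted p = 0.75) to 1.46 ± 0.10 (adjusted p = 1.9e-10). With the IL-2 block the adjusted p-values were 5.1e-06 for Emilin2, 0.0002 for Sla and 0.017 for Mt1. For Sla and Mt1 the sign of the TCM effect in replicate 3 was thus opposite to that in replicates 1 and 2. The same held for Emilin2, with effects in IL-2 of -0.094, -0.035 and 0.667 on the log2(CPM + 1) scale.

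Killing molecules were in this set. Gzmb, a granule protease, was at 923, 959 and 1338 and 1075, 1146 and 1880.4 CPM in IL-2 and 574, 438 and 412 and 1159, 1069 and 989 CPM in IL-12 (0.83 ± 0.28, adjusted p = 0.18, and 0.92 ± 0.12, adjusted p = 2.5e-06 without the r3 pair). Prf1, the pore protein perforin, was at 16.7, 17.9 and 33.7 and 25.3, 28.7 and 71.7 CPM in IL-2 and 38.3, 35.5 and 34.5 and 106, 111 and 88.97 CPM in IL-12 (0.61 ± 0.47, adjusted p = 0.61, and 0.83 ± 0.12, adjusted p = 1.8e-05). With the IL-2 block the adjusted p-values were 6.4e-05 and 0.00073. Both genes were higher with TCM in each replicate number of the IL-2 groups, and in IL-12 the groups without and with TCM did not overlap. Of 24 cytotoxic granule genes, 7 were called above 0 and 2 below without these libraries, against 6.96% and 6.24% of all genes in that fit, and against none in either direction with all libraries by edgeR. The summed level of this list was 3014, 3046 and 3516 CPM in IL-2 and 3010.5, 3243 and 4168 CPM with TCM, and 3213, 3097 and 3054 and 4185, 4125 and 3877 CPM in IL-12.

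Cytokine receptors and transcription factors of T cell state were also called without these libraries and not with them. Il12rb1, a chain of the IL-12 receptor, had 0.71 ± 0.21 (adjusted p = 0.11) and 0.69 ± 0.07 (adjusted p = 1.5e-07), with the fitted effect upward in IL-12 (0.73) and near 0 in IL-2 (0.03). Il12rb2, the other chain, had the reverse sign, -0.41 ± 0.23 (adjusted p = 0.45) and -0.43 ± 0.07 (adjusted p = 8.5e-05). Il2ra, the high-affinity chain of the IL-2 receptor, had 0.31 ± 0.09 (adjusted p = 0.11) and 0.32 ± 0.07 (adjusted p = 0.0013). Tcf7, a factor of naive and stem-like T cells, was at 1058, 1018 and 750.2 and 1173, 1222 and 707 CPM in IL-2 and 417, 439 and 464 and 324, 322 and 352 CPM in IL-12, and had -0.54 ± 0.24 (adjusted p = 0.32) and -0.62 ± 0.07 (adjusted p = 6e-07). Id3, another factor of that state, had -1.07 ± 0.29 (adjusted p = 0.089) and -1.15 ± 0.16 (adjusted p = 1.4e-05). Adjusted p-values with the IL-2 block were 4.8e-07 for Il12rb1, 0.0003 for Il12rb2, 0.0033 for Il2ra, 0.00025 for Tcf7 and 0.00012 for Id3. Stat4, Eomes, Il7r, Havcr2, Gzmc, Ccl3, Ccl4 and Myc were likewise called without these libraries and not with all of them, with adjusted p-values of 0.0036, 0.0028, 0.0065, 0.003, 0.0011, 0.027, 0.0074 and 0.034. With the block they were called too (0.0076, 0.042, 0.0028, 0.00087, 0.0059, 0.017 and 0.026), except Myc (adjusted p = 0.075). Signs of the difference were below 0 for Stat4, Eomes, Ccl3 and Ccl4 and above 0 for Il7r, Havcr2, Gzmc and Myc. In IL-2 the TCM effect of Tcf7, Id3, Eomes and Il7r was above 0 in replicates 1 and 2 and below 0 in replicate 3. For Myc it was the reverse.

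Other genes often measured in T cells were called in neither of these fits and not with the IL-2 block. Pdcd1, the inhibitory receptor PD-1, was at 14.5, 14.5 and 21.9 and 15.1, 16.9 and 25.8 CPM in IL-2 and 41.3, 43.3 and 44.7 and 50.9, 51.8 and 49.4 CPM in IL-12, with 0.05 ± 0.25 (adjusted p = 0.96) and 0.08 ± 0.10 (adjusted p = 0.68). Tbx21, the factor T-bet, had 0.15 ± 0.18 (adjusted p = 0.77) and 0.14 ± 0.07 (adjusted p = 0.22). Ctla4, an inhibitory receptor, rose with TCM in both cytokines with effects of 0.57 and 0.54 and a difference of -0.03 ± 0.10 (adjusted p = 0.93). Ifng, Tnf and Fasl, effector molecules, had 0.52 ± 0.26 (adjusted p = 0.22), 0.03 ± 0.16 (adjusted p = 0.93) and 0.18 ± 0.09 (adjusted p = 0.19) without the r3 pair. Ifng was near 1 to 2 CPM in IL-2, so its TCM effect there rests on few counts. A missed threshold does not show that the effects were alike.

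With these libraries left out, 6.96% of all genes were called above 0 and 6.24% below. DNA replication genes were below 0 in 21 of 49 and above in none (median -0.17), mitosis genes in 15 of 45 and none (median -0.15), mitochondrially encoded genes in 8 of 13 and none (median -0.40), MYC list genes in 8 and 1 of 38, and nuclear oxidative phosphorylation genes in 5 and none of 46. With the IL-2 block, against 4.14% below over all genes, 1 of the 45 mitosis genes and 5 of the 13 mitochondrially encoded ones were below 0, and none above. Fatty acid synthesis genes were above 0 in 11 of 22 and below in none, cholesterol synthesis genes in 10 and 1 of 25, and IL-2 and STAT5 targets in 14 and 4 of 33. Interferon response genes were above 0 in 17 and below in 7 of 66. The IL-2 block, which called 6.35% of all genes above and 4.14% below, gave other counts for these 4 lists. Above and below 0 there were 9 and 0 fatty acid synthesis genes and 10 and 0 cholesterol synthesis genes. For IL-2 and STAT5 targets these counts were 8 and 5, and for interferon response genes 22 and 3. The B cell marker sum, given above, was also lower in the r3 pair than in replicates 1 and 2, and the NK cell marker sum was 402, 411 and 329 CPM in IL-2 and 523, 609 and 358 CPM with TCM. The part of other cells in the shift of replicate 3 was not tested. All 10 liver markers together were at most 0.132 CPM in any library, 8 of them with no count at all.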

How the data were processed

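RNA of 12 CD8+ T cell libraries was prepared with a directional total RNA kit, per the labels' protocols, whose extraction text also describes livers and a drug that no sample label names. The deposited table holds raw counts per gene, made by the authors with STAR 2.7.7a, per the submitters' processing notes, which also name edgeR and the build GRCh38, while the table's identifiers are mouse genes. The counter, annotation and counting strand are not given in the sources used here, so reads of close copies (the Ifitm genes, Scd1 and Scd2, Oasl2) and of antisense partners may be split or shared. The deposited signal of each library equals the counts divided by 1 constant, as the values show. The number of unmapped sample columns was 0.

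Counts were fitted with edgeR 4.0.16 (R 4.3.3). The filterByExpr step (minimum count 10, minimum total 15) left 15897 of 55487 genes, followed by TMM scaling, 1 mean per group, quasi-likelihood tests and Benjamini-Hochberg adjustment over all genes tested. CPM use the TMM-scaled library sizes. DESeq2 1.42.0, limma 3.58.1 on the deposited signal as log2(CPM + 1), other filters and scalings, replicate blocks and omitted libraries were alternatives. The code was tested on simulated data.

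Residuals of same-number libraries correlated between the IL-2 arms (0.429, 0.399 and 0.682). Replicates 1 and 2 correlated as much across numbers (0.45 and 0.414), so only replicate 3 is shown to deviate together. The IL-2 block takes all replicate numbers to pair these arms, which the values do not show for replicates 1 and 2. Same-number libraries of other pairs of groups had -0.0891 to 0.13. No 2 replicates agreed within sampling noise (chi-square per degree of freedom 2.4 to 45.4).

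The comparison, lists and rules were chosen with earlier results of these data known. The 110 genes of the naming rule, with at least 10 CPM in the highest group except for a fixed set of T cell genes, had the largest differences per class of effect (up to 6), the smallest p among called members of a list (up to 3) or among genes called only without IL-2 r3 and IL-2-TCM r3 (6), where r is the replicate. The text names part of them. Results for some genes are not reported here.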

Additional observations from a re-analysis of the deposited data

Results flagged for a closer look

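The effect of TCM differed between the cytokines by the test of the difference itself for 251 genes, 189 above 0 and 62 below 0. In 36 genes both effects were called with opposite signs. The named genes among these, with a called effect in each cytokine, had the following differences on the log2 scale. TCM raised the gene in IL-12 and lowered it in IL-2 for Cd93 (2.38), Fam20a (1.88), B4galnt4 (1.47), Igfbp4 (1.47), Aqp9 (1.46), P2ry14 (1.36), Itgb3 (0.93) and Foxo1 (0.50). The reverse was found for Wnt10b (-1.28), Ptpn5 (-1.15), Bbc3 (-0.93), Pou2f2 (-0.82) and Arap2 (-0.68). The effect of Bbc3 in IL-2 was not called without the r3 pair (adjusted p = 0.051). Fam20a was at only 0.291 to 1.91 CPM in the IL-2 libraries.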

How the results depend on the processing

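All genes called for the difference kept their sign in every setting that tested them, 251 of 251 in 25 settings and 229 of 229 with a mean of at least 5 CPM, while their number moved. Every setting reuses most of the libraries that made the calls, so the kept signs are not independent support. Against 251 genes, DESeq2 called 537, the fit with no filter on low counts 779, the IL-2 block (replicate block inside the IL-2 arms) 1668, the fits without the r3, r1 or r2 pair of IL-2 libraries 2105, 111 and 77 (111 and 77 come from fits chosen after seeing the data), and 64 had an absolute log2 difference of at least 1; without 1 library the range was 105 to 1164. Against 2313 genes for TCM in IL-2, the IL-2 block gave 4442, the fits without the r3, r1 or r2 pair 3936, 1097 and 1059, and 341 had an absolute log2 effect of at least 1; the range without 1 library was 1292 to 2938. Against 4617 genes for TCM in IL-12, 7332 were called without the r3 pair and 677 had an absolute log2 effect of at least 1, with a range of 2931 to 5697 without 1 library. The 36 genes with opposite effects were 154 with the IL-2 block, 197 without the r3 pair, 60 with no filter and 19 with limma with no filter. The replicate block over all libraries gave 330 for the difference. Other scalings, filters and pseudocounts gave 178 to 369. The cause of these changes was not tested. When the fit without the r3 pair was chosen, that pair was known from earlier results to stand apart. Of 69 named genes called for the difference, 36 kept their call in all 12 fits without 1 library, and 33 lost it in at least 1. The IL-2 block ended none of the 69 calls and added 24 among the other 41 named genes. Only named genes that were not called changed sign. Over the fits without 1 library their differences ranged from -0.0203 to 0.295 for Tbx21, -1.23 to 2.65 for Vegfa, -0.35 to 0.00609 for Tnf, -0.129 to 0.00921 for Ctla4, -0.183 to 0.292 for Pdcd1, -0.555 to 1.17 for Pkm, -0.107 to 0.103 for Ccl5, -0.0736 to 1.02 for Prdm1, -0.168 to 0.427 for Ifng and -0.22 to 0.0112 for Tigit. Pdcd1 and Ccl5 were at -0.0209 and -0.0624 without the r1 pair, Ctla4, Ifng and Tigit at 0.0248, -0.321 and 0.0857 without the r2 pair, Tnf at 0.0341 without the r3 pair, and Itgae at 0.33 with limma on log2(CPM + 5). With limma on log2(CPM + 5), 18 of the 69 named differences were smaller by over 1.5 times and 6 calls were lost, and with limma with no filter 18 calls were lost. There are 3 libraries a group, and separate cultures are not stated; genes of a few CPM, such as Ifng in IL-2, rest on few counts.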
